A study of Mus musculus with 2 samples.

Results

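A set of 6 liver genes that respond to fasting, cyclic AMP or low insulin is described here: Lepr, Igfbp1, Sik1, Ppargc1a, Fgf21 and Ppp1r3c. They were chosen by name, and with their differences between the pools already known, so the values below are a description of the chosen genes. Each of the 6 had 1 row in the deposited array table, out of 1750 genes that had a row carrying exactly 1 gene symbol and 5082 rows in all. Liver RNA was measured in C57BL/6J mice, an inbred wild-type strain, aged 6 to 10 weeks. Every mouse was fitted with a jugular catheter on day 1 and was infused with saline from day 2. From day 3 the saline group stayed on saline with chow in the cage, whereas the parenteral nutrition (PN) group was fed through the vein and its chow was taken away. Livers were taken on day 11, after 8 days of either infusion. RNA of 3 mice was pooled per group and each pool was put on 1 array, so there are no replicates, no test between the groups was possible, and the spread between mice is unknown. The route of nutrient supply and the removal of chow differed together and cannot be told apart. The labels used here give neither the sex of the mice nor the hour of collection.

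In the fasted liver, insulin falls while glucagon and glucocorticoids rise. Glucagon acts through cyclic AMP and the transcription factor CREB, and low insulin lets FOXO factors into the nucleus, and together they switch on genes of glucose production. The liver then also secretes factors that act on growth and fuel use elsewhere, and glycogen is broken down. Feeding reverses this program: insulin lowers FOXO activity, glycogen is stored through protein phosphatase bound to glycogen, and lipogenesis is induced.

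Values are RMA levels, a microarray summary on the log2 scale, and a difference is the PN level minus the saline level on that scale. Of the 6 genes 5 had the higher level in the PN pool, and Ppp1r3c alone had the higher level in the saline pool. Among all named genes 50.2% were higher in the PN pool. At least 2-fold higher were 4 of the 6, Lepr, Igfbp1, Sik1 and Ppargc1a, against 7.60% of all named genes. At least 2-fold lower was 1 of the 6, against 7.20%. Because the members were picked with these differences in view, nothing is read from these counts. The authors kept only rows that differed by at least 1.5-fold, and the smallest absolute difference in the table was 0.585. The absolute difference had a median of 1.50 over the 6 genes (2.83-fold) and of 0.73 over all named genes (1.65-fold). Fgf21 lay closest to the cutoff, at 0.89, and no gene outside the cutoff can be seen.

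**Figure D1:**
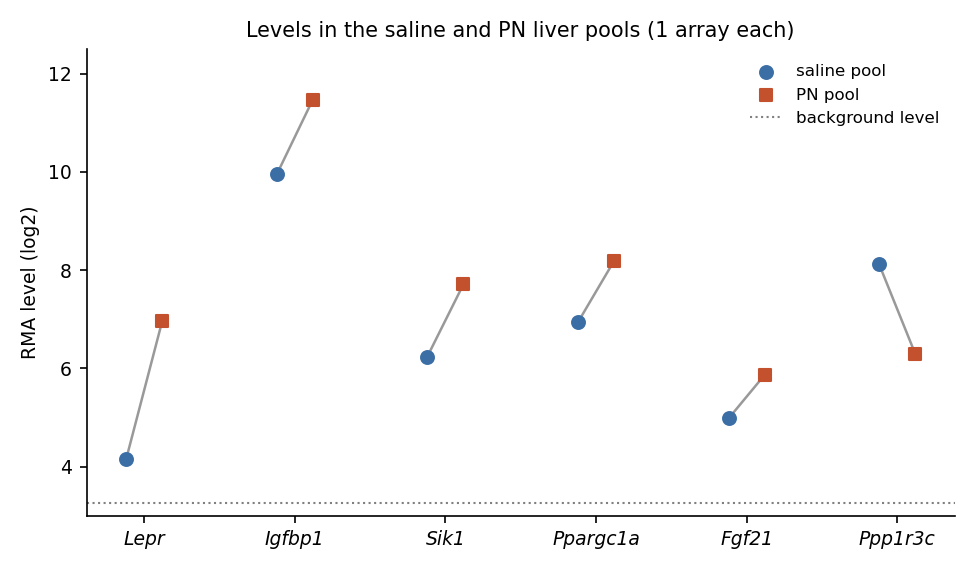
RMA level (log2, vertical axis) of the 6 genes in the saline pool (circles) and the PN pool (squares), 1 array each, with a grey line joining the values of a gene and a dotted line at the background level of 3.26. The PN square lies above the saline circle for 5 genes and below it for Ppp1r3c, and levels of different genes come from different probe sets and are not comparable.

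To show the regulatory sequence near these genes, the 250 bases before each RefSeq start site (build GRCm38.p6) were taken for the 5 genes with an entry, Lepr (2 start sites), Igfbp1, Ppargc1a, Fgf21 and Ppp1r3c. They were searched on both strands for the cyclic AMP response element TGACGTCA and its core TGACG (every full element also holds the core). The insulin response element core CAAAACAA and the FOXO core GTAAACA were searched as sites of FOXO factors. The remaining motifs were the E-box CACGTG, the amino acid response element TGATGNAAT bound by ATF4, the STAT motif TTCNNNGAA and the TATA box TATAAA. Matched bases are in capitals in the sequences below, which run 5′ to 3′ on the strand of the gene. A match is a description of the letters and not a bound site.

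Among the secreted factors, Igfbp1 encodes a binding protein that restrains insulin-like growth factors in the blood and is repressed by insulin in hepatocytes. Its level was 9.95 with saline and 11.5 with PN, a difference of 1.53 or 2.88-fold. The PN pool was thus the higher of the pair, and Igfbp1 had rank 26 of 1750 from the highest difference. Of the 174 other named genes of like mean level (the table was cut into 10 bins of level), 19 had an absolute difference at least as large, and the median of the 174 was 0.81. Its promoter window (chr11:7197537-7197786, plus strand) held the insulin response element core from 108 to 101 bases before the start. That window is shown because insulin repression of this gene is known to act through such an element.
Igfbp1: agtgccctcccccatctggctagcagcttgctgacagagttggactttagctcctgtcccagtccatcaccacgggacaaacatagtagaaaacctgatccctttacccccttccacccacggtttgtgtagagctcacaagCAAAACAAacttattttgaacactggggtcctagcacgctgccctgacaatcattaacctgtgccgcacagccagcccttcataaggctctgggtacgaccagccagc

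Fgf21 encodes a hormone that the liver releases in fasting under the nuclear receptor PPARA and under amino acid stress through ATF4. Its level was 4.98 with saline and 5.87 with PN, a difference of 0.89 or 1.85-fold. This was the smallest of the 6 differences, with rank 221 of 1750. Of 174 named genes of like level 33 had an absolute difference at least as large. Of 133 olfactory, vomeronasal and taste receptor genes in the table, which serve here as genes that liver does not normally use, 15.8% had one at least as large. For Ppargc1a that share was 3.01%, and it was 0 of 133 for the other 4 genes. The 133 had themselves passed the 1.5-fold cutoff, and the 6 genes were picked with their differences known. These shares therefore do not measure noise, and nothing is read from them. The higher of the pair of levels of a receptor gene had a median of 3.26, which is used below as a background level, and a 95th percentile of 5.02. The saline level of Fgf21 lay just under that percentile. The Fgf21 window (chr7:45615491-45615740, minus strand) held the largest number of matches. The amino acid response element lay on the opposite strand from 140 to 132 bases before the start, the cyclic AMP core on the opposite strand from 68 to 64, the E-box from 50 to 45 and the TATA box from 28 to 23.
Fgf21: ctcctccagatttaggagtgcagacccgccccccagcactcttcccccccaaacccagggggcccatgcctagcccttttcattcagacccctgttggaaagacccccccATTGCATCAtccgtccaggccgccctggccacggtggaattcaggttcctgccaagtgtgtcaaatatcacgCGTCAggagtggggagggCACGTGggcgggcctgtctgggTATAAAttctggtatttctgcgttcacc

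Lepr encodes the leptin receptor, whose shorter forms include a soluble one that liver sheds into the blood and whose long form signals through JAK2 and STAT3. Its level was 4.15 with saline and 6.97 with PN, a difference of 2.82 or 7.05-fold. The saline level lay 0.89 above the background level but under 5.02, the 95th percentile of receptor genes, so it is not shown to stand above genes that liver does not use, and the fold and its rank are not exact. Against a saline level raised to that percentile the PN level was 3.84-fold higher, a difference of 1.94. As deposited, Lepr had the largest difference of the 6, with rank 4 of 1750, and 0 of 174 named genes of like level had one as large in either direction. Which receptor forms the probe set reads is not stated. RefSeq listed a pair of start sites. No motif lay before the outer one, and the insulin response element core lay from 114 to 107 bases before the inner one. Only the 30 bases around that match (chr4:101717781-101717810, plus strand) are shown, beside the Igfbp1 window that holds the same letters at a like distance.
Lepr: caaattagaaaCAAAACAAatagaaaagcc

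The cyclic AMP arm is represented by Sik1 and Ppargc1a. Sik1 encodes a kinase that is induced by CREB and then restrains the CREB coactivators of the CRTC family. Its level was 6.24 with saline and 7.71 with PN, a difference of 1.47 or 2.78-fold. The PN pool was again the higher, at rank 32 of 1750, and 9 of 174 named genes of like level had an absolute difference at least as large. Ppargc1a encodes PGC-1alpha, a coactivator that works with FOXO1 and HNF4A on genes of glucose production. Its level was 6.94 with saline and 8.19 with PN, a difference of 1.25 or 2.38-fold. It had rank 57 of 1750, and 33 of 174 named genes of like level had an absolute difference at least as large. Its window (chr5:51567726-51567975, minus strand) held the cyclic AMP core on the opposite strand from 49 to 45 bases before the start and no full element.
Ppargc1a: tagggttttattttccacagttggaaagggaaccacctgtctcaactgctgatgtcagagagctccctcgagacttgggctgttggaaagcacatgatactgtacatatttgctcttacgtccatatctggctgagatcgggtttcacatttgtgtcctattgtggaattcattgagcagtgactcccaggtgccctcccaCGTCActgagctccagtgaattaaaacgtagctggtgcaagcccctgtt

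Ppp1r3c encodes a subunit, also called PTG, that holds protein phosphatase 1 on glycogen and so favours glycogen synthase over glycogen phosphorylase. Its level was 8.12 with saline and 6.29 with PN, a difference of -1.83, or 3.55-fold lower. It had rank 14 of 1750 from the lowest difference, and 5 of 174 named genes of like level had an absolute difference at least as large. The differences of Lepr and Ppp1r3c lay 4.64 apart on the log2 scale. The Ppp1r3c window (chr19:36736605-36736854, minus strand) held an E-box from 104 to 99 bases before the start, a motif to which basic helix-loop-helix factors bind.
Ppp1r3c: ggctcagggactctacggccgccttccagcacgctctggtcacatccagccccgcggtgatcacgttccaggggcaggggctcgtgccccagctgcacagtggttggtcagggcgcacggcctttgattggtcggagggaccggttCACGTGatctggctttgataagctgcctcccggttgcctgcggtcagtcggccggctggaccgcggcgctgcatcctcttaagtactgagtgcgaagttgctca

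**Figure D2:**
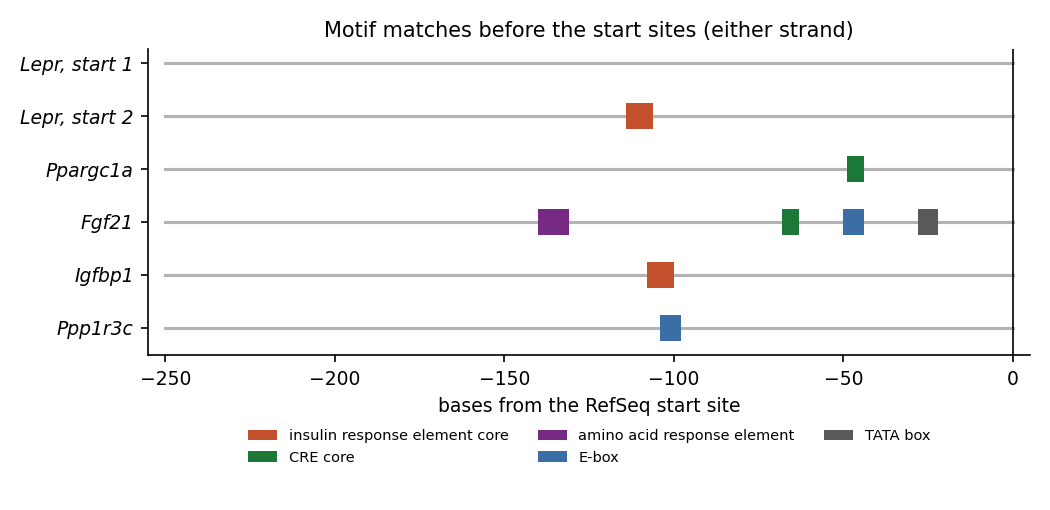
Motif matches in the 250 bases before the RefSeq start sites of the 5 genes with an entry (horizontal axis, bases from the start at 0; 1 grey line per start site), coloured by motif and drawn to scale. The insulin response element core begins 108 bases before the start in Igfbp1 and 114 before it in Lepr start 2, and Lepr start 1 has no match.

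The insulin response element core was thus in the windows of 2 of the 5 genes, Igfbp1 and Lepr. These are 2 of 6 windows, beside 2.21% of the 32841 RefSeq promoter windows of the same length. Motifs were chosen with the genes known, and such an element was already known in Igfbp1, so no share given here is a test. The cyclic AMP core was in 2 of 5, Ppargc1a and Fgf21, and in 17.8% of all windows. The E-box was in 2 of 5, Fgf21 and Ppp1r3c, and in 6.02% of all windows. The amino acid response element was in Fgf21 and in 0.816% of all windows, and the TATA box was in Fgf21 and in 12.4%. The full cyclic AMP element, the FOXO core and the STAT motif were in 0 of 5, and in 1.55%, 3.17% and 7.02% of all windows. No match says only that these letters are not in these 250 bases. The E-box was the only searched motif in the window of the lower gene Ppp1r3c, and it was also in that of the higher gene Fgf21.

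**Figure D3:**
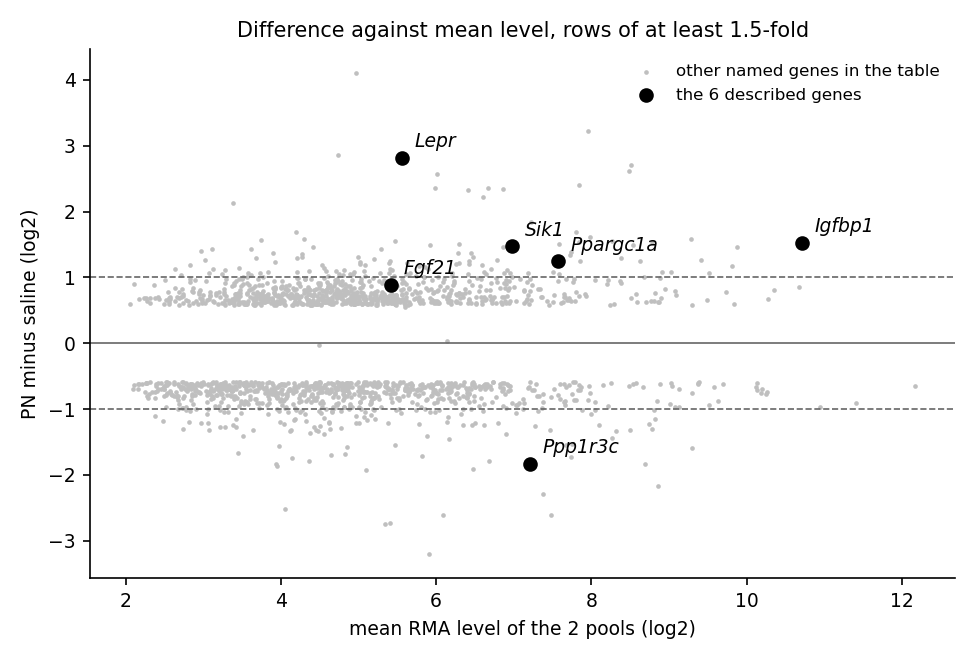
PN minus saline (log2, vertical axis) against the mean RMA level of the pools (log2, horizontal axis) for the 1750 named genes in the table (grey) and the 6 described genes (black), with dashed lines at 2-fold. The empty band around 0 is the authors' 1.5-fold cutoff, a few grey points inside it are genes whose rows disagree and were averaged, and Lepr lies above all grey points of like level.

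The other genes of these pathways were taken from 10 lists. Without the 6 members the lists held 258 genes. Of these, 28 had a row, 24 of them higher and 4 lower in the PN pool, with a median difference of 0.95 (1.93-fold). A share of 85.7% of the 28 was higher, beside 50.2% over all named genes, and 42.9% were at least 2-fold higher, beside 7.60%. The remaining 230 listed genes had no named row: each missed the cutoff, is unnamed here or had no probe set. The lists were written with earlier results of these data known, so these shares describe the lists and are no test.

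Of 27 genes of glucose production, 4 had a row. G6pc, the catalytic subunit of glucose 6-phosphatase that releases glucose from the liver, was at 9.22 with saline and 10.4 with PN, 2.26-fold higher. It went the same way as Ppargc1a and by a like amount. Slc16a1, a lactate and pyruvate carrier, was 1.55-fold lower, and Foxa2, a liver transcription factor, 1.51-fold lower. Pck1, the cytosolic PEP carboxykinase, had no row. Of 29 genes of cyclic AMP and CREB signalling, 6 had a row and 5 of them were higher, beside 50.2% of all named genes. Nr4a1, a nuclear receptor gene induced by cyclic AMP, went from 5.49 to 7.86, 5.16-fold higher. The clock gene Per1 was 1.92-fold higher, Fosb 1.64-fold and Crem, which encodes CREB-related activators and repressors, 1.51-fold. Both levels of Fosb lay under 5.02, the 95th percentile of receptor genes. Pde4a, which encodes an enzyme that breaks down cyclic AMP, was 1.70-fold lower. Sik2, Sik3 and the 3 CRTC genes had no row.

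Of 27 genes of insulin signalling 3 had a row, each at least 2-fold higher with PN, beside 7.60% of all named genes. With so few genes per list, no shift of a pathway is read from such a count. Irs2, a substrate of the insulin receptor whose gene is repressed by insulin in liver, was at 7.06 with saline and 8.11 with PN, 2.08-fold higher. Ddit4, a stress-induced inhibitor of mTORC1, was 2.19-fold higher, and Sgk1, a kinase gene induced by glucocorticoids, 2.07-fold. In the axis of insulin-like growth factors, 2 of 21 genes had a row. Beside Igfbp1 this was Socs2, a feedback inhibitor of growth hormone signalling, at 2.05-fold higher (mean of 2 rows). The other IGF binding protein genes, Igfbp2 to Igfbp7, had no row. Of 14 genes of leptin signalling 2 had a row, Lepr and Socs3. Socs3, a feedback inhibitor of the leptin receptor and of cytokine receptors, went from 4.49 to 5.69, 2.29-fold higher.

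Of 33 glycogen genes 3 had a row. Gys2, the liver glycogen synthase gene, was at 8.39 with saline and 9.38 with PN, 1.98-fold higher, so it went the opposite way from Ppp1r3c. Pgm3 was 1.51-fold higher. It encodes a mutase of the hexosamine pathway, which feeds protein glycosylation. The other targeting subunit genes, Ppp1r3b among them, and the phosphorylase gene Pygl had no row. Of 28 PGC-1 partners and targets Alas1, the rate-limiting enzyme of heme synthesis and a known target of PGC-1alpha, was the only gene beside Ppargc1a with a row. It went from 8.49 to 9.56, 2.11-fold higher. Of 37 genes around FGF21 and ketone body formation, Fgf21 alone had a row of its own, and the receptor component gene Klb had none. A row shared by Cyp4a10 and Cyp4a32, the former a listed PPARA target, was 2.74-fold lower and was picked out after its value was known.

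Genes of glycolysis, lipogenesis and glucose response, many of which insulin or glucose is known to raise, were also set beside the 6. Of the 32 listed 7 had a row. All 7 went up from saline to PN, beside 50.2% of all named genes, and their median difference was 0.86 (1.82-fold). Fasn, fatty acid synthase, went from 7.74 to 8.70, 1.95-fold higher. Rgs16, a G protein regulator gene that glucose induces in liver, was 1.90-fold higher, the desaturase gene Fads2 1.82-fold and the elongase gene Elovl6 1.66-fold. Pnpla3, a lipid droplet protein gene, was 1.63-fold higher and Txnip, induced by glucose, 1.61-fold. Both levels of Pnpla3 lay under 5.02, the 95th percentile of receptor genes. Lpin2, a phosphatidate phosphatase gene, was 2.12-fold higher (mean of 2 rows). Srebf1 and Pklr had no row. Insulin-repressed Igfbp1, Irs2 and G6pc and insulin-induced Fasn were higher in the same pool. These genes were picked from lists that also held lower genes, and genes that missed the cutoff cannot be seen. The part of insulin in these differences was not tested.

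Of 23 stress and glucocorticoid response genes 7 had a row, and 6 of them were higher, beside 50.2% of all named genes. Beside Fgf21 and Per1 these were Atf3, a stress-induced transcription factor gene, at 2.32-fold, Nupr1, a stress-induced nuclear protein gene, at 2.23-fold, and the phosphatase gene Dusp1 at 1.58-fold. Sult1e1, estrogen sulfotransferase, lay under the background level in the saline pool, at 2.91, and was at 7.02 in the PN pool. Taken against the background level it was 13.5-fold higher. This is not a lower bound, because the saline level also lay under 5.02, the 95th percentile of receptor genes. Lcn2, an iron-binding secreted protein gene, was 1.999-fold lower, just short of 2-fold. Atf4, Ddit3 and Asns had no row.

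**Figure D4:**
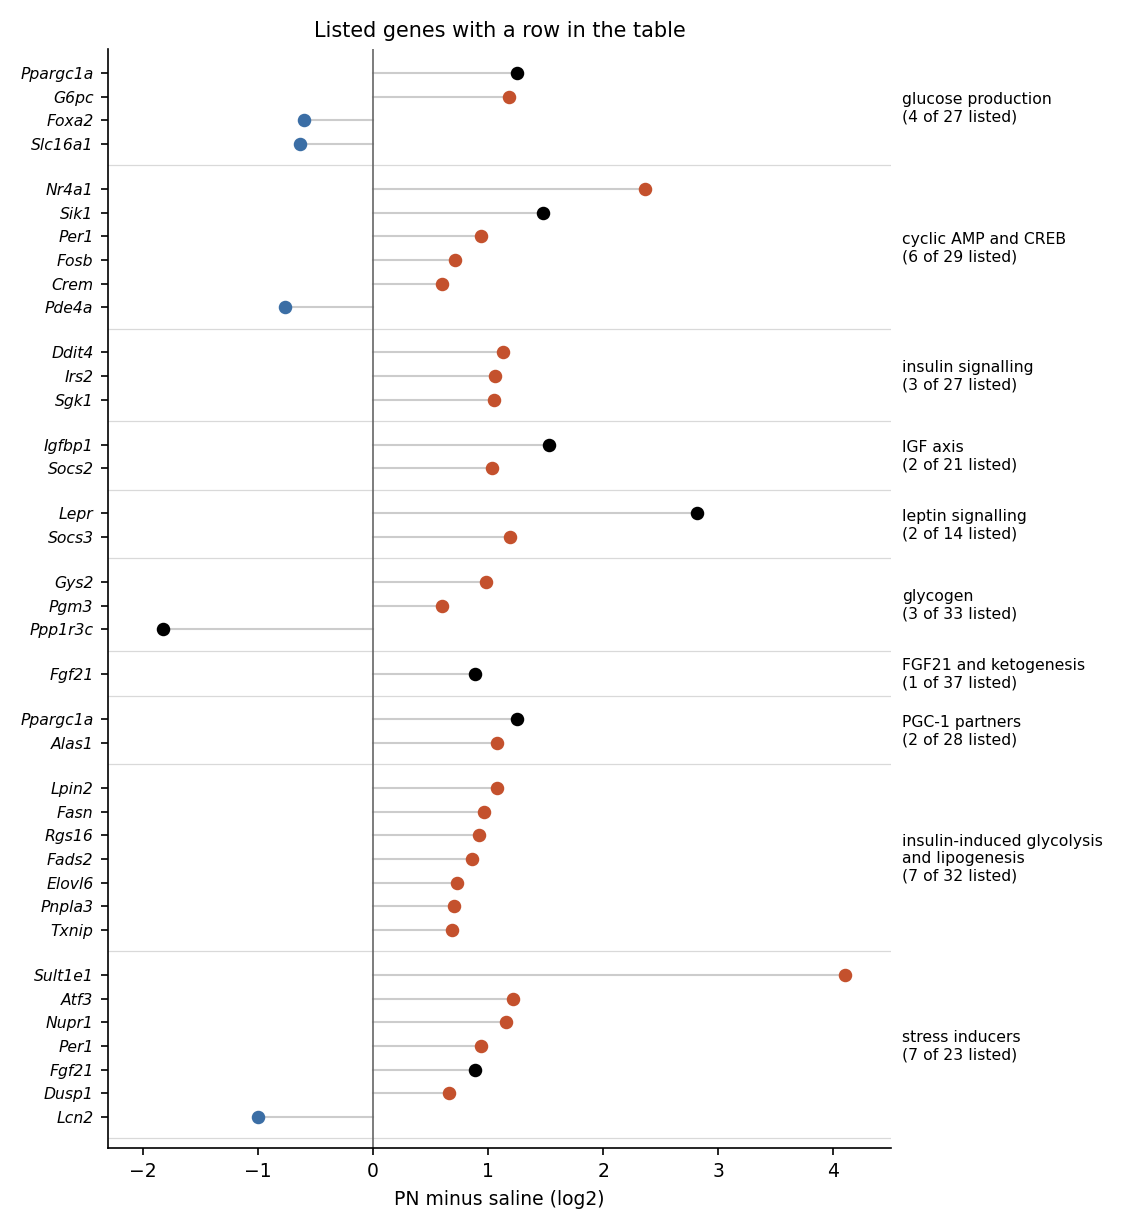
PN minus saline (log2, horizontal axis) for every gene of the 10 lists with a row of its own, 1 line per gene and 1 block per list, with the number with a row and the number listed at the right. Black points are 5 of the described genes on the positive side and Ppp1r3c at -1.83, red points are other genes higher in the PN pool and blue points genes lower in it; Per1, Fgf21 and Ppargc1a stand in 2 lists.

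Markers of other cell types were looked up in the same table, in which every row differs by at least 1.5-fold and 50.2% of all named genes are higher in the PN pool. Of 12 macrophage markers 7 had a row, each with the higher level in the PN pool, by 1.53-fold (Clec4f) to 5.15-fold (Marco), and their summed level went from 10.3 to 11.1 on the log2 scale. Of 10 lymphocyte markers 5 had a row and were higher, with a summed level of 7.06 in the saline and 7.92 in the PN pool, and of 7 neutrophil markers 3 were higher, with 6.35 and 7.34. Of 7 exocrine pancreas markers 3 had a row and were lower, with 6.49 and 5.60, and of 7 erythroid markers 2 were lower, with 6.998 and 6.190. The stellate cell marker Lum was 1.91-fold higher, and the adipocyte marker Retn 1.62-fold lower. Of 8 cholangiocyte markers 3 had a row, Prom1 higher and Epcam and Tspan8 lower, with summed levels of 6.49 and 6.13. The lymphocyte markers Cd3e, Gzma and Klrb1c and the neutrophil marker Csf3r lay under 5.02, the 95th percentile of receptor genes, in both pools. So did the pancreas markers Prss2 and Zg16 and the cholangiocyte markers Epcam and Prom1. These levels are not shown to stand above genes that liver does not use. None of 9 endothelial and none of 7 skeletal muscle markers had a row, and no marker with a row was listed at 0. The part of other cell types in the differences of the 6 genes was not tested, and in bulk liver a change in the number of cells and in RNA per cell cannot be told apart. None of 12 hepatocyte markers had a row, so they could not check the labelled tissue. The liver-restricted genes Cyp7a1 and Cyp8b1, picked after their values were seen, had levels between 7.77 and 10.0 in both pools.

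For each gene the named genes with the nearest pair of levels were listed, by distance in the plane of the saline and PN levels. With only 2 arrays such likeness describes a pair of numbers, and since levels of different probe sets are not comparable, a distance reflects the probe sets as well as the genes. Coq10b, a gene of the coenzyme Q pathway, and the immediate early gene Jun were nearest to Sik1, at distances of 0.085 and 0.17. Irs2, described above, and Gfra1, a neurotrophic factor receptor gene, were nearest to Ppargc1a, at 0.14 and 0.15. Inhba, an activin subunit gene, and Gas2l1 were nearest to Fgf21, at 0.068 and 0.069. Listed for Lepr were Abcd2, a peroxisomal transporter gene, at 0.66 and the macrophage gene Marco at 0.69. Nearest to Igfbp1 were Fads2 at 0.47 and Fabp2 at 0.71, and nearest to Ppp1r3c were Cyp4a12b at 0.40 and Hsd3b5 at 0.41.

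Of the 6 genes 4 had both levels above 5.02, the 95th percentile of receptor genes, while Lepr and Fgf21 passed it in the PN pool and not in the saline pool. For all 6 the brighter pool reached at least 5.18, the value that the brighter pool had in a gene of median brightness. In 42 recomputed differences, 7 alternatives for each of the 6 genes, the direction was kept in all 42. Apart from quantile normalization, the alternatives could not have reversed it. Each gene had 1 row and both levels above 3.26, so taking its brightest row or a floor at 3.26 returned the deposited values. A floor at 5.02 cannot reverse a sign. The mean and median differences over all rows (-0.05 and -0.60), when subtracted, were smaller in size than each of the 6 differences. The median differences of genes of like level were also smaller in size than each of the 6. With them subtracted, Fgf21 was 0.26 higher and Sik1 0.86 higher on the log2 scale.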

How the data were processed

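Biotin-labelled cDNA of 2 liver pools was hybridised, 1 array per pool. Per the submitters' processing notes, the authors computed the deposited log2 values with RMA in Affymetrix Expression Console 1.4.0.38. Per the series' design text they kept rows that passed a 1.5-fold cutoff. Neither the build nor the probe annotation, nor which arrays were normalized as a set, is stated there. RMA and the cutoff both bear on the differences: a gene without a row is not thereby unchanged, and differences near the cutoff are seen only on 1 side of it.

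Groups came from the mouse group in the labels. The platform annotation gave 1 gene symbol for 1779 of the 5082 rows, several for 161 and no symbol for 3142. Symbols were updated through the Entrez identifier in the RefSeq table of GRCm38.p6, which held 1766 of the 1779. Rows of a gene were averaged, which gave 1750 named genes. A difference is PN minus saline, a fold is 2 to its absolute value, and no pseudocount was used. A level under 3.26, the median higher level of 133 chemosensory receptor genes, was raised to it for a fold given against the background level. With 1 array per group no p-value or standard error was computed, and the number of arrays limits the precision.

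The members, the 10 pathway lists, the 11 marker lists and the motifs were chosen with earlier results of these data known. Named genes are the 6 members, every pathway list gene with a row, the 2 nearest genes per member, and marker genes with a row. Listed genes without a row are named only as such. Other genes are said to be picked after their values were seen. Promoter windows are RefSeq sequence. Alternatives were the brightest row of a gene, a floor at 3.26 or 5.02, 3 centrings, quantile normalization, a 2-fold cutoff, rows of several symbols and a level minimum. Calculations were tested on simulated data. Python 3.11.15, pandas 2.3.3, numpy 2.4.6 and matplotlib 3.10.9 were used.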

Additional observations from a re-analysis of the deposited data

How the results depend on the processing

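Each value rests on 1 array per pool, so no replicate could be left out. Signal over background and the differences of the 133 receptor genes are rough gauges, and neither measures the precision of a difference. No paired analysis was possible because each group has 1 sample. With no spread between replicates, a value was taken as moved where its fold changed by 1.5 times or more. Directions of the 6 genes were kept in all 42 recomputed differences, though only quantile normalization could have reversed them, as described above. With the median difference over all rows subtracted, the differences were 3.42 for Lepr, 2.13 for Igfbp1, 2.08 for Sik1, 1.85 for Ppargc1a, 1.49 for Fgf21 and -1.22 for Ppp1r3c, and the median of the 6 was 1.96. With the median of the genes in the same of 10 level bins subtracted they were 2.19, 2.11, 0.86, 1.83, 0.26 and -2.44. The table holds no absolute difference under 0.585, so a median falls at an edge of that gap (-0.60 over all rows, 0.59 over named genes), and subtracting it shifts every gene by about the size of the cutoff. The mean over all rows was -0.05, and subtracting it, an alternative chosen after seeing the data, moved none of the results past 1.5 times. With levels under 5.02, the 95th percentile of receptor genes, raised to it, also chosen after seeing the data, the difference of Lepr was 1.94, and 22 of the 28 further pathway genes were higher. Fosb and Pnpla3, under 5.02 in both pools, had no difference left with that floor. Of these 28 as deposited, 12 were at least 2-fold apart, and all 12 were higher. Lcn2, lower in the PN pool at -0.999, only just missed that cutoff. The other alternatives left the members' values and the count of 24 higher pathway genes within 1.5 times.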

Other observations

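The 12 protein-coding genes that flank the 6 described genes in RefSeq's order were looked up in the table. Of these, 0 had a row, among them Leprot, which lies beside Lepr, and Igfbp3, which lies beside Igfbp1. A flanking gene without a row missed the cutoff, is unnamed here or had no probe set. The share of all protein-coding genes with a row was not computed, so nothing is read from this 0. A row shared by Scd2, a stearoyl-CoA desaturase gene of the lipogenesis list, and Mir5114 had levels of 4.39 with saline and 5.47 with PN, 2.11-fold higher. It carries 2 symbols, was not counted with the lists above and was picked out once its value was known.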
